A study of Mus musculus with 6 samples.

Results

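The genes described here are 10 classical markers of radial glia and astrocytes: Fabp7, Slc1a3, Nes, Vim, Hopx, Gfap, Aqp4, Aldh1l1, S100b and Aldoc. They were taken by gene symbol from the 53801 genes of a table of RNA-seq read counts, and each symbol matched 1 gene. The table holds whole brains from 6 C57BL/6 mouse embryos of stage E16.5, 3 of genotype Bahd1-/- (Bahd1-KO) and 3 of genotype Bahd1+/+ (Bahd1-WT). Both genotypes came from matings of Bahd1+/- mice, and the labels give neither litter nor sex. BAHD1 is a chromatin protein that takes part in gene repression, and the comparison asked whether its loss alters transcripts of the brain before birth. Bahd1 itself had 2, 10 and 6 reads in Bahd1-KO replicates 1, 2 and 3, and 1971, 3102 and 3470 reads in Bahd1-WT replicates 1, 2 and 3, which matched the labels in every embryo.

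Radial glia are the stem cells of the embryonic brain. Their cell bodies line the ventricle, a long fiber reaches the outer surface, and they give rise first to neurons and later to astrocytes. Notch signaling through the DNA-binding protein RBPJ helps to keep them undifferentiated, whereas nuclear factor I proteins and cytokine signaling through STAT3 promote the astrocyte fate. At mid to late gestation, transcripts of radial glia are abundant and those of mature astrocytes are still rare, and most astrocyte markers increase after birth.

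Bahd1-KO replicate 3 stood apart from the other 5 embryos and is shown separately throughout. Of its reads, 44.7% fell on 3 genes that collect ribosomal RNA (Gm42418, mt-Rnr1 and mt-Rnr2), against 0.249% to 0.614% in the others. Levels below are counts per 1000000 counts of the library (CPM) after scaling with trimmed mean of M-values factors (TMM CPM). All 6 listed markers of lung exceeded every other embryo in this replicate, with a summed level of 1173 TMM CPM against 0.672 to 12.5, and Sftpc, a surfactant protein gene, alone reached 828 TMM CPM. The 12.5 was that of Bahd1-KO replicate 2, which was the highest of the other 5 embryos for 5 of the 6 markers. In the rest the sum was 0.672 to 2.23 TMM CPM. All 9 markers of mature myelin also exceeded every other embryo in Bahd1-KO replicate 3, with a sum of 1331 against 81.1 to 163 TMM CPM. Conversely, the sum of the 7 neuron markers was 1955 against 7771 to 9600 TMM CPM, with 5 below and 1 above every other embryo. Dcx, a microtubule protein of young neurons, was at 33.0 against 1865 to 3713 TMM CPM. The 6 markers of mature forebrain neurons went the other way. Their sum was 724 against 149 to 231 TMM CPM, with 5 above and 1 below every other embryo. These markers go against a label of whole E16.5 brain alone for this library, although its Bahd1 count matched its genotype. Every value over all 6 embryos therefore includes 1 library whose tissue is in doubt, and the part of these features in the values below was not tested. In bulk tissue, a change in the number of cells of a type and a change in RNA per cell cannot be told apart.

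None of the 10 radial glia and astrocyte genes passed the adjusted threshold of 0.05 between genotypes, either in all 6 embryos or without Bahd1-KO replicate 3 (edgeR quasi-likelihood test with Benjamini-Hochberg adjustment over all genes tested). In all embryos, 1 of 24739 genes passed (0.00404%), which was Bahd1, and without that replicate 4 of 23334 genes passed (0.0171%). At an unadjusted p under 0.05, there were 0 of the 10 genes in each fit, against 4.67% and 1.48% of all genes. DESeq2 called 8 of 21582 genes (0.0371%) in all embryos and 11 of 20615 (0.0534%) without the replicate, again with 0 of these 10, although it withheld a p-value for Hopx, Gfap and S100b in all embryos. The median log2 fold change of the 10 genes was 0.28 in all embryos, with 7 genes higher and 3 lower in Bahd1-KO, and -0.12 without replicate 3, with 3 higher and 7 lower. The median over all genes tested was 0.06 and -0.01. The median was also negative with all 6 embryos when total counts replaced the TMM factors (-0.02, with 5 genes higher and 5 lower) and with voom and quality weights (-0.10). The median of all genes tested was -0.11 with total counts and 0.03 with voom. The sign of the median of the 10 genes thus differed between settings, and the cause was not tested.

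**Figure D1:**
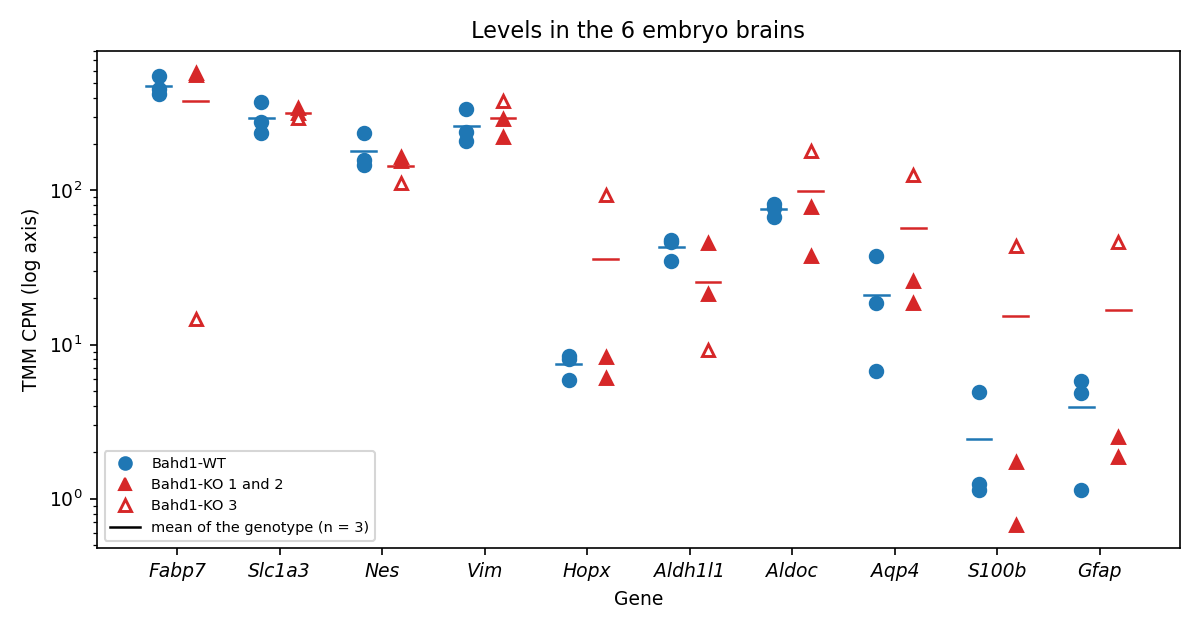
Level of each gene in each embryo, in TMM CPM on a log axis; circles are Bahd1-WT, filled triangles Bahd1-KO replicates 1 and 2, open triangles Bahd1-KO replicate 3, and horizontal lines the mean of each genotype (n = 3). The open triangle lies far below the other embryos for Fabp7 (14.7 TMM CPM) and far above them for Hopx, Aqp4, S100b and Gfap. Most filled triangles lie near the circles, but that of Bahd1-KO replicate 1 lies below every circle for Aldh1l1, Aldoc and S100b.

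Per kilobase of exon, the 10 genes covered a wide range of levels in Bahd1-WT brains. With TMM CPM divided by the length of the merged exons (RPKM), Fabp7 led with 383 ± 55.8 (SD, n = 3), followed by Vim with 55.4 ± 14.0, Slc1a3 with 34.7 ± 8.32, Nes with 27.9 ± 7.60 and Aldoc with 23.1 ± 2.27. Lower levels were those of Aldh1l1 with 9.46 ± 1.57, Hopx with 4.91 ± 0.906, Aqp4 with 3.35 ± 2.49, S100b with 1.64 ± 1.45 and Gfap with 0.927 ± 0.582 RPKM. The ranges over the Bahd1-WT embryos overlapped between Slc1a3 and Nes, between Nes and Aldoc, and between each neighboring pair from Hopx to Gfap. Those of Fabp7 and Vim, Aldoc and Aldh1l1, and Aldh1l1 and Hopx did not overlap, and Vim and Slc1a3 were separated only by 44.2 against 43.8 RPKM. In Bahd1-KO replicate 3 the order was different, with Vim at 80.3, Hopx at 62.02 and Aldoc at 55.3 RPKM in the lead and Fabp7 at 11.7 RPKM in place 8. Taking the longest annotated transcript as the length left the Bahd1-WT order as it was and raised, for instance, Fabp7 to 544 RPKM.

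Promoter sequence is shown for Fabp7, the most abundant of these genes, and for S100b and Gfap, the pair furthest above the other embryos in Bahd1-KO replicate 3. The stretches come from RefSeq promoter windows on GRCm38.p6 and overlap no annotated exon. Those of Fabp7 and S100b lie upstream of the annotated gene, whereas that of Gfap lies within the gene, since 1 annotated exon of Gfap is found further 5′ (chr11:102900767-102900912). They are written 5′ to 3′ on the strand of the gene, and capitals mark matches to the core motif TGGGAA of RBPJ or to the half-site TTGGCA of nuclear factor I, on either strand.
Fabp7, chr10:57784673-57784880, + strand: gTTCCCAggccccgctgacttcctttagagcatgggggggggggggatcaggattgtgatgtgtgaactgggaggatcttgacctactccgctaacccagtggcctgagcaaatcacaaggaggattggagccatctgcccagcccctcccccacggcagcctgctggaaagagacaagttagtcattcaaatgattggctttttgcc
S100b, chr10:76253586-76253835, + strand: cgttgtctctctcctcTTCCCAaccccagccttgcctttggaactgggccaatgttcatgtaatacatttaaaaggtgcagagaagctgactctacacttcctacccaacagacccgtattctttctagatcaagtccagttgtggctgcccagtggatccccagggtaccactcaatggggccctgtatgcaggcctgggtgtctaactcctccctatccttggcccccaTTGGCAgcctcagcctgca
Gfap, chr11:102897201-102897450, - strand: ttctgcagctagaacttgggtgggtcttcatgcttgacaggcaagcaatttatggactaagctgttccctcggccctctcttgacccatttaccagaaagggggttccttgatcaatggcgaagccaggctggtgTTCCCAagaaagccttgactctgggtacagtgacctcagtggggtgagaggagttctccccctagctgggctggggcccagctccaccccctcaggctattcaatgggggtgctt
All 3 stretches held a match to TGGGAA, although the genes went in opposite directions in that replicate. Promoter windows were found for 9 of the 10 genes, 11 windows in all. In the 250 bases before the start, TGGGAA occurred in 6 of the 11 windows (of Aldh1l1, Aldoc, Fabp7, Gfap and S100b) and in 21.6% of all 32851 windows. TTGGCA occurred in 2 of the 11 (Aldoc and S100b) and in 12.3% of all, the STAT motif TTCNNNGAA in 2 (Aldoc and Slc1a3) and in 7.02% of all, and the TATA box TATAAA in 2 (Slc1a3 and Vim) and in 12.4% of all. Unlike the printed stretches, these counts kept bases that overlap annotated exons. For Vim, no stretch free of annotated exons was kept, although its window entered the counts. These are matches of letters only.

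Fabp7 (ENSMUSG00000019874, chr10:57784881-57788450 on GRCm38) encodes the brain fatty acid binding protein, a hallmark of radial glia. It had 575, 557 and 14.7 TMM CPM in Bahd1-KO replicates 1, 2 and 3, and 557, 423 and 457 TMM CPM in Bahd1-WT replicates 1, 2 and 3. Bahd1-KO replicate 3 was 35.0-fold below the mean of the other 5 embryos, whereas those 5 stayed within 1.36-fold of each other. Without it, the lower of the remaining Bahd1-KO embryos was level with the highest Bahd1-WT embryo (both 557 TMM CPM to 3 digits), so that the genotypes touched without overlapping. Of all genes with a mean of at least 1 CPM, 6.29% had no overlap among these 5 embryos. All embryos together gave a log2 fold change of -0.32 (SE 1.00, adjusted p = 0.915, edgeR) and the fit without replicate 3 gave 0.23 (SE 0.20, adjusted p = 0.981, edgeR), with a 95% interval of -0.23 to 0.68.

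Slc1a3 (ENSMUSG00000005360, chr15:8634124-8710764) encodes GLAST, a glutamate transporter of radial glia and astrocytes. Its levels were 340, 317 and 294 TMM CPM in Bahd1-KO and 374, 280 and 235 TMM CPM in Bahd1-WT. It was the only one of the 10 genes for which Bahd1-KO replicate 3 fell inside the range of the other embryos. Its log2 fold change between genotypes was 0.10 (SE 0.26) with every embryo and 0.13 (SE 0.23) without replicate 3, and the latter had a 95% interval of -0.41 to 0.68. Relative to each other, however, these radial glial transcripts changed greatly in that replicate. Per 100 reads of Slc1a3 there were 4.99 reads of Fabp7 in Bahd1-KO replicate 3 and 149 to 194 in the other 5 embryos, a ratio within a library that no scaling affects.

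Nes (ENSMUSG00000004891, chr3:87971078-87980451) and Vim (ENSMUSG00000026728, chr2:13573927-13582826) encode nestin and vimentin, intermediate filament proteins of neural stem cells, vimentin being abundant also in connective tissue and endothelium. Nes had 155, 164 and 111 TMM CPM in Bahd1-KO and 145, 157 and 235 TMM CPM in Bahd1-WT, and Vim had 221, 289 and 381 against 210, 241 and 337 TMM CPM. Both were highest among the Bahd1-WT embryos in replicate 3, and Bahd1-KO replicate 3 was the lowest of all embryos for Nes and the highest for Vim. Per 100 reads of Vim, Nes had 29.2 reads in that replicate and 56.9 to 70.2 in the others. The summed level of 7 meningeal and connective tissue markers was 2574 TMM CPM in it, against 341 to 447 in the others, with 6 of the 7 markers above every other embryo and none of them at 0. The 8 markers of endothelium and pericytes had a sum of 987 TMM CPM there against 416 to 488 in the others, with 6 of them above every other embryo. The part of either list in the Vim level was not tested. Without replicate 3, the log2 fold changes were -0.18 (SE 0.25) for Nes and -0.05 (SE 0.26) for Vim, with 95% intervals of -0.75 to 0.40 and -0.65 to 0.55.

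Hopx (ENSMUSG00000059325, chr5:77086988-77115121) encodes a small homeodomain protein known from outer radial glia and astrocytes, and also from alveolar cells of the lung. It had 6.04, 8.34 and 94.0 TMM CPM in Bahd1-KO and 5.87, 8.09 and 8.39 TMM CPM in Bahd1-WT. Outside Bahd1-KO replicate 3 the levels were within 1.43-fold of each other, and that replicate was 12.8-fold above their mean. The log2 fold change of 2.28 (SE 1.02, adjusted p = 0.696, edgeR) in all embryos became -0.06 (SE 0.29, adjusted p = 0.986, edgeR) without it. As given above, the lung markers were highest in the same embryo, and their part in the Hopx level was not tested.

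Aldh1l1 (ENSMUSG00000030088, chr6:90486427-90600203) and Aldoc (ENSMUSG00000017390, chr11:78322968-78327781) encode enzymes enriched in the astrocyte lineage, a folate dehydrogenase and aldolase C of glycolysis. Aldh1l1 had 21.4, 45.3 and 9.27 TMM CPM in Bahd1-KO and 34.6, 47.7 and 45.9 TMM CPM in Bahd1-WT. Aldoc had 37.6, 77.7 and 180 TMM CPM in Bahd1-KO and 67.2, 77.5 and 81.5 TMM CPM in Bahd1-WT. The genes parted in Bahd1-KO replicate 3, where Aldh1l1 was 4.21-fold below and Aldoc 2.64-fold above the mean of the other embryos. In contrast, Bahd1-KO replicate 1 was the lowest of the other 5 embryos for both, at 0.49 times the mean of the remaining 4 for each gene. The log2 fold changes were -0.75 (SE 0.54) and 0.39 (SE 0.52) in all embryos, and -0.36 (SE 0.35) and -0.39 (SE 0.32) without replicate 3, with 95% intervals of -1.16 to 0.44 and -1.13 to 0.35. Aldoa, the widely expressed aldolase, had 61.3 TMM CPM in Bahd1-KO replicate 1 and 118 to 196 TMM CPM in the other 4 embryos, so that Aldoc kept 61.3 reads per 100 reads of Aldoa there against 39.5 to 56.9 in them. In Bahd1-KO replicate 3 this ratio was 108.

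Gfap (ENSMUSG00000020932, chr11:102887336-102900912), Aqp4 (ENSMUSG00000024411, chromosome 18) and S100b (ENSMUSG00000033208, chr10:76253853-76261159) mark maturing astrocytes and encode, respectively, an intermediate filament protein, the water channel of astrocyte endfeet and a calcium-binding protein that oligodendrocyte precursors also make. Gfap had 1.86, 2.51 and 46.1 TMM CPM in Bahd1-KO and 5.78, 4.83 and 1.13 TMM CPM in Bahd1-WT. Aqp4 had 18.7, 25.9 and 126 TMM CPM in Bahd1-KO and 37.4, 18.6 and 6.69 TMM CPM in Bahd1-WT. S100b had 0.672, 1.73 and 43.8 TMM CPM in Bahd1-KO and 4.91, 1.24 and 1.14 TMM CPM in Bahd1-WT. All 3 genes were highest in Bahd1-KO replicate 3, at 14.3, 5.88 and 22.6 times the mean of the other embryos for Gfap, Aqp4 and S100b. In that library Gfap had 314 reads per 100 reads of Fabp7, and in the other 5 libraries 0.247 to 1.14.

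These 3 genes were also the most variable of the 10 among the other embryos. The highest of the 5 exceeded the lowest 5.12-fold for Gfap, 5.59-fold for Aqp4 and 7.31-fold for S100b, compared with 1.36-fold to 2.23-fold for the remaining 7 genes. Bahd1-WT replicate 1 was the highest of the 5 embryos for each, at 2.23, 2.14 and 4.09 times the mean of the remaining 4 for Gfap, Aqp4 and S100b. That embryo also had a summed level of mature myelin markers of 163 TMM CPM, against 81.1 to 86.3 in the other 4. Mobp, a myelin protein gene, was at 16.4 TMM CPM in it and at 0.193 to 0.702 in those 4, and Mog had no read in Bahd1-WT replicates 2 and 3. The part of these transcripts in the astrocyte values was not tested. Without Bahd1-KO replicate 3, the log2 fold change was -0.85 (SE 0.62; 95% interval -2.28 to 0.58) for Gfap, 0.08 (SE 0.60; -1.30 to 1.47) for Aqp4 and -1.01 (SE 0.73; -2.70 to 0.68) for S100b. In all embryos it was 2.104 (SE 1.28), 1.45 (SE 0.87) and 2.66 (SE 1.50), with an adjusted p of 0.696 for each (edgeR). With Bahd1-WT replicate 1 left out as well, the values for Gfap, Aqp4 and S100b were -0.45, 0.81 and 0.02.

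**Figure D2:**
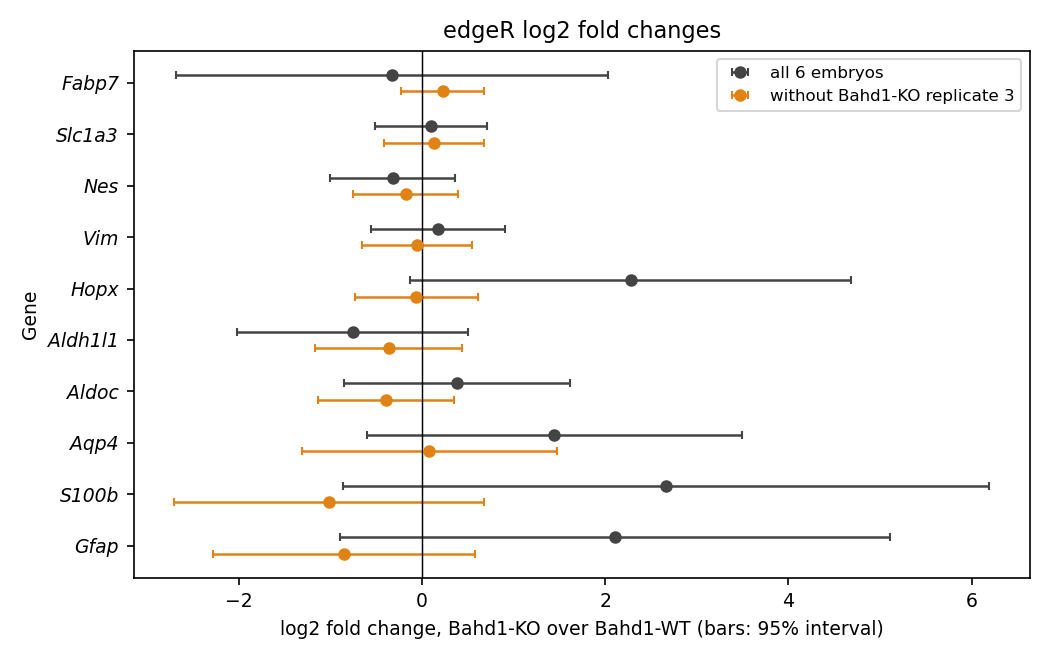
Log2 fold change of each gene, Bahd1-KO over Bahd1-WT, with 95% intervals from edgeR, in all 6 embryos (dark) and without Bahd1-KO replicate 3 (orange). Every interval contains 0. That of Fabp7 runs from -2.69 to 2.04 in all embryos and from -0.23 to 0.68 without that replicate.

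Set against all genes, the 10 genes were more often displaced upward than downward in Bahd1-KO replicate 3. It was the highest of the 6 embryos for 6 of them and the lowest for 3, compared with 31.3% and 45.5% of the 14825 genes with a mean of at least 1 CPM. It was at least 4-fold above the mean of the other 5 for 4 of them (Hopx, Gfap, Aqp4 and S100b) and at least 4-fold below for 2 (Fabp7 and Aldh1l1), compared with 8.61% and 8.36% of all genes. The scaling matters here, since the median of all genes in this embryo against the mean of the others was -0.27 on the log2 scale with TMM factors and -0.93 with total counts. The corresponding median of the 10 genes was 0.98 with TMM factors and 0.31 with total counts. Vim changed direction, from 0.55 with TMM factors to -0.11 with total counts, while the other 9 genes kept theirs. In all 6 embryos, the genotypes overlapped for each of the 10 genes, and 4.24% of all genes showed no overlap.

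**Figure D3:**
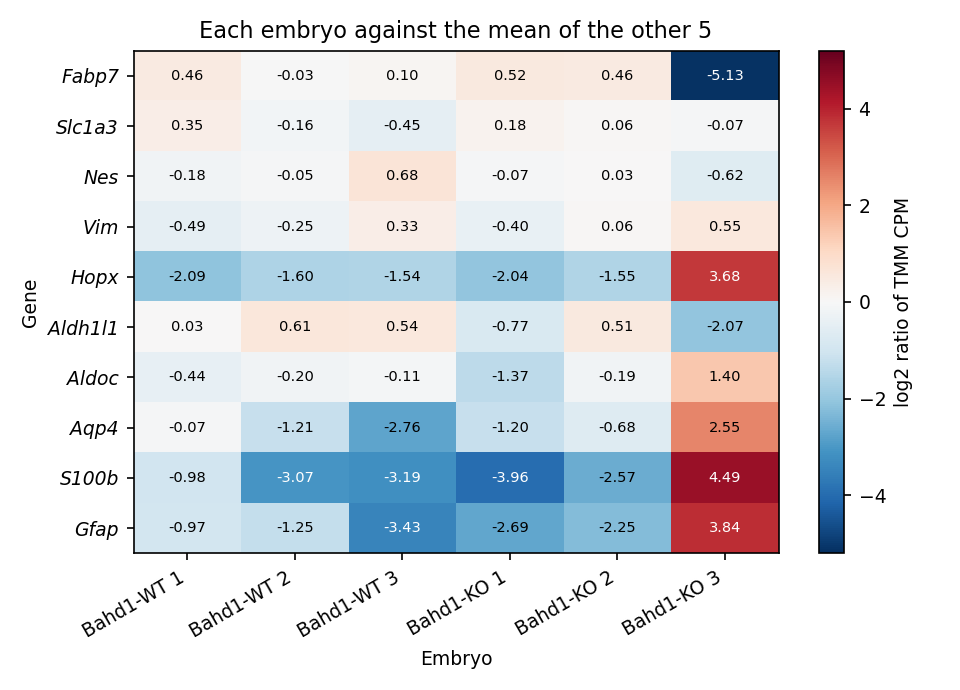
Log2 ratio of each embryo to the mean of the other 5 (TMM CPM), with genes in rows and embryos in columns, red for higher and blue for lower. The column of Bahd1-KO replicate 3 holds the strongest colors, from -5.13 for Fabp7 to 4.49 for S100b, and most cells of the other columns mirror it because it enters their reference.

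The remaining genes of these cell types were examined as lists. Of 25 other radial glia genes, 0 passed the adjusted threshold, 9 were higher and 16 lower in Bahd1-KO in all embryos (median log2 fold change -0.21), and 12 were higher and 13 lower without replicate 3 (median -0.01). The extremes without replicate 3 were Notch1 at -0.65 (SE 0.43), Fam107a at -0.48 (SE 0.46) and Mfge8 at -0.46 (SE 0.43) on one side and Gas1 at 0.26 (SE 0.23), Sox2 at 0.25 (SE 0.23) and Id4 at 0.25 (SE 0.29) on the other. In Bahd1-KO replicate 3 itself, 13 of the 25 genes were below and 7 above every other embryo, near the shares of all genes (45.5% and 31.3%). Their median was -0.58 on the log2 scale against -0.27 for all genes. The size of the displacement differed more from all genes. For 7 of the 25 it was at least 4-fold downward and for 1 at least 4-fold upward, compared with 8.36% and 8.61% of all genes. The sum of the list was 1635 TMM CPM there and 3176 to 3657 TMM CPM in the others. Single genes of the list differed widely. Sox2, a transcription factor of neural stem cells, was at 14.0 against 60.7 to 99.8 TMM CPM, and Ptprz1, a receptor phosphatase of radial glia, at 183 against 532 to 1016 TMM CPM. Tnc, which encodes the matrix protein tenascin C, was at 84.5 against 218 to 297 TMM CPM. Fam107a, a marker of outer radial glia that mature astrocytes also express, went the other way with 150 against 4.23 to 13.1 TMM CPM.

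Of 28 other astrocyte genes, 22 were above and 1 below every other embryo in that replicate, compared with 31.3% and 45.5% of all genes, and their median was 1.10 against -0.27 for all genes. Slc1a2, the main astrocytic glutamate transporter, was at 1614 against 175 to 340 TMM CPM, Glul, the glutamine synthetase, at 669 against 206 to 258 TMM CPM, and Gja1, the gap junction protein connexin 43, at 258 against 123 to 157 TMM CPM. Slc1a3 had 18.2 reads per 100 reads of Slc1a2 there and 110 to 142 in the others. Between genotypes, 0 of the 28 genes passed the adjusted threshold, 22 were higher in Bahd1-KO in all embryos (median log2 fold change 0.41) and 9 without replicate 3 (median -0.16). The lowest log2 fold changes without replicate 3 were those of Gpr37l1 at -1.92 (SE 0.75), Agt at -0.99 (SE 0.61) and Apoe at -0.53 (SE 0.51), and the highest those of Chrdl1 at 0.33 (SE 0.31), Ntsr2 at 0.11 (SE 0.39) and Slc4a4 at 0.08 (SE 0.31). Gpr37l1 was the only gene of the 4 lists with an unadjusted p under 0.05 in either edgeR fit. This was in the fit without replicate 3, where 1.48% of all genes had such a p. It had 211, 66 and 39 reads in Bahd1-WT replicates 1, 2 and 3, and 15 and 30 reads in Bahd1-KO replicates 1 and 2. No gene of these lists passed the adjusted threshold with DESeq2, which withheld a p-value in all embryos for 4 of them (Fam107a, Gpr37l1, Itih3 and Ppp1r3c).

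**Figure D4:**
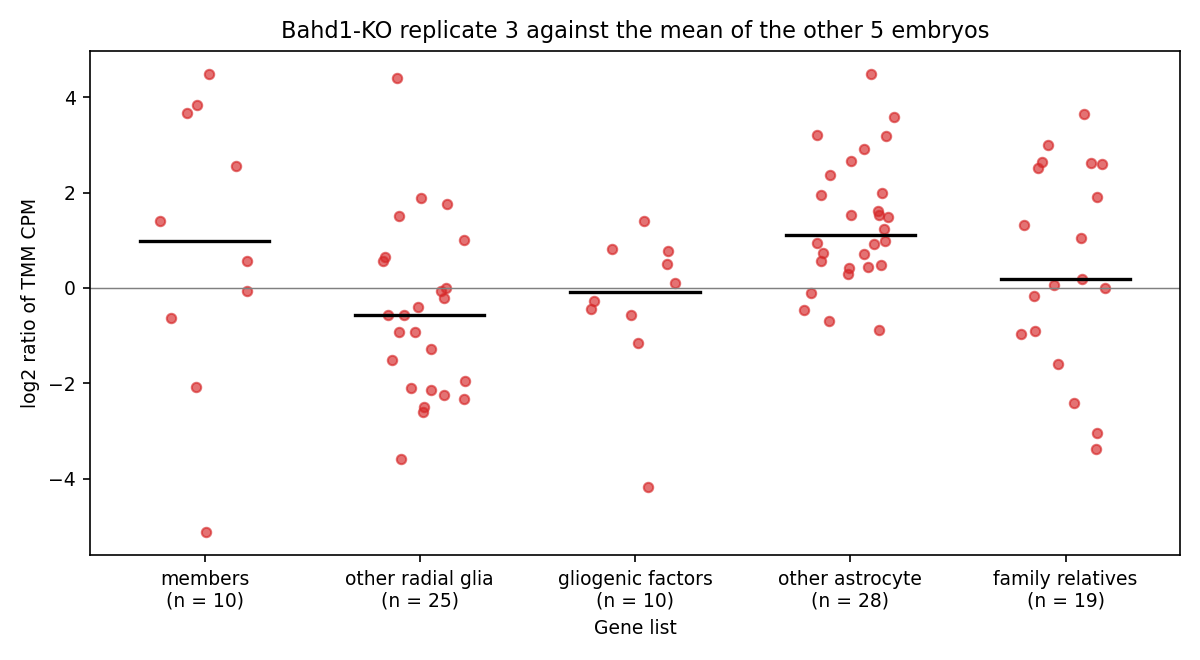
Log2 ratio of Bahd1-KO replicate 3 to the mean of the other 5 embryos (TMM CPM) for each gene of 5 lists, with points for genes, spread sideways at random, and a black line for the median of each list. Other astrocyte genes lie mostly above 0 (median 1.10), and other radial glia genes lie on both sides (median -0.58, against -0.27 for all genes).

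The 5 embryos besides Bahd1-KO replicate 3 also differed from each other in the astrocyte genes. Of the 28 other astrocyte genes, 17 were lowest in Bahd1-KO replicate 1, compared with 37.4% of all genes with a mean of at least 1 CPM, and 14 were highest in Bahd1-WT replicate 1, compared with 12.7% of all genes. Of the 10 genes described above, 3 were lowest in Bahd1-KO replicate 1, near the share of all genes (37.4%). In Bahd1-WT replicate 1, 4 of the 10 were highest, compared with 12.7% of all genes. The 10 genes were also lowest for 3 in each of Bahd1-WT replicates 1 and 3, and highest for 4 in Bahd1-WT replicate 3. The shares of all genes for these last counts were not computed. Apoe, a lipid carrier made by astrocytes, was at 24.1 TMM CPM in Bahd1-KO replicate 1 and at 56.8 to 104 TMM CPM in the other 4. The summed level of 13 genes of midbrain and hindbrain, a list made up with the values in view, was 5.14 TMM CPM in Bahd1-KO replicate 1 and 46.5 to 75.8 TMM CPM in the other 4, and the part of this in the astrocyte values was not tested.

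Genes for factors that drive gliogenesis formed the third list. Of 10 such genes, 0 passed the adjusted threshold, 5 were higher and 5 lower in Bahd1-KO in each fit, and the median log2 fold change was 0.03 in all embryos and 0.01 without replicate 3. Nfia, a nuclear factor I gene needed for astrocyte formation, had 186, 133 and 169 TMM CPM in Bahd1-KO and 157, 150 and 158 TMM CPM in Bahd1-WT. Its log2 fold change without replicate 3 was 0.02 (SE 0.20). Sox9 had 33.2, 35.1 and 23.0 against 29.6, 33.5 and 39.0 TMM CPM, and a log2 fold change of -0.01 (SE 0.22) without replicate 3. The remaining extremes in that fit were Nfix at -0.23 (SE 0.26), Lhx2 at -0.15 (SE 0.36), Stat3 at -0.13 (SE 0.25), Bmpr1a at 0.21 (SE 0.24), Nfib at 0.11 (SE 0.21) and Zbtb20 at 0.08 (SE 0.35). Lhx2, a cortical progenitor factor, was at 4.32 TMM CPM in Bahd1-KO replicate 3 against 46.4 to 107 in the others.

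Relatives from the same gene families were compared with the markers themselves. Of 19 relatives, 0 passed the adjusted threshold, and the median log2 fold change was -0.02 in all embryos and -0.10 without replicate 3. Its extremes there were Aldoa at -0.49 (SE 0.44), Des at -0.41 (SE 0.48) and S100a16 at -0.29 (SE 0.27), and Aldh1l2 at 0.33 (SE 0.26), Slc1a1 at 0.14 (SE 0.21) and S100a13 at 0.13 (SE 0.30). Fabp5, a fatty acid binding protein with wider expression, was at 26.3 TMM CPM in Bahd1-KO replicate 3 against 113 to 165 in the others, and Fabp3 at 5.13 against 8.64 to 19.6. Per 100 reads of Fabp5, Fabp7 had 55.7 reads there and 277 to 511 elsewhere, so Fabp7 was displaced further than its relative. Other S100 genes were also highest in the embryo where S100b was, with S100a1 at 23.8 against 2.63 to 4.80 TMM CPM and S100a6 at 12.99 against 1.80 to 2.51 TMM CPM.

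Among 14373 genes with a mean of at least 100 reads, the patterns most like those of Gfap and Fabp7 were sought as the smallest root mean square difference of centered log2 levels over the 6 embryos. For Gfap these were Agt (0.44), Kcng4 (0.45), Coro6 (0.47), Slc24a2 (0.48) and Itih3 (0.50), of which Agt and Itih3 are on the list of other astrocyte genes. Aqp4 held place 48 and S100b place 83, while Aldh1l1 held place 13147. For Fabp7 they were Gm8773 (0.07), Slco5a1 (0.18), Dpysl3 (0.20), 1110015O18Rik (0.21) and 2610042L04Rik (0.21), and the nearest of the 10 genes was Aldh1l1 in place 1203. Dpysl3, a cytoskeletal regulator of growing neurites, had 4172 reads in Bahd1-KO replicate 3 and 176826 to 285797 reads in the others. The likeness rests mainly on that replicate, which was far from the others for each of these genes.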

How the data were processed

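Polyadenylated RNA of 6 whole embryonic brains was sequenced from stranded libraries. After trimming, the authors aligned the reads to GRCm38 and counted them per Ensembl gene with featureCounts (1.4.6-p3, per the submitters' processing notes), and the deposited table holds raw read counts without normalization or filter. The aligner is given as STAR in one place and TopHat2 in another. Library totals were 61724000 to 91782802 counts, but 44.7% of those of Bahd1-KO replicate 3 fell on genes that collect ribosomal RNA. Counting error was not compared with the spread between embryos. Groups and replicate numbers came from the sample titles.

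Genes whose counts summed to 10 or more were tested with the two-sided quasi-likelihood test of edgeR (4.0.16, R 4.3.3) with TMM factors and genotype as the only term. The p-values were adjusted by Benjamini and Hochberg over all genes tested (threshold 0.05). Standard errors and 95% intervals came from the same fit. Scripts were tested on simulated counts. Levels are TMM CPM, and RPKM divides these by merged exon length (GENCODE M21, which matched 53620 of 53801 genes). Log2 ratios of an embryo to the mean of the others used a pseudocount of 0.01 CPM. Where 2 table entries bore the symbol Aldoa, the one with more reads was used. Alternatives were DESeq2 (1.42.0), voom with quality weights (limma 3.58.1), other filters and scalings, ribosomal and mitochondrial RNA genes left out, a replicate block, and each embryo left out. DESeq2 without Bahd1-KO replicate 3, and leaving out that embryo together with Bahd1-WT replicate 1, were chosen after seeing the data.

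The 10 genes and all lists were chosen with earlier results of these data known. Genes named were Bahd1, the 10, 10 standing examples (Slc1a2, Glul, Gja1, Apoe, Sox9, Nfia, Ptprz1, Tnc, Aldoa and Fabp5), the 3 highest and 3 lowest of each list without Bahd1-KO replicate 3, the 5 nearest patterns to Gfap and Fabp7, and leading genes of marker lists. Dcx, Mog, Fabp3, S100a1, S100a6, Ppp1r3c, Nefh and Ina were named after their values were seen.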

Additional observations from a re-analysis of the deposited data

How the results depend on the processing

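None of the 10 genes and no gene of the 4 related lists passed the adjusted threshold in any of the 18 alternatives. The direction of single genes was less stable, with 31 of 180 log2 fold changes changing sign, in 9 of the 10 genes (Aldh1l1 kept its sign). Leaving out 1 embryo at a time, the values ran from -0.74 to 0.23 for Fabp7, -0.051 to 0.27 for Slc1a3, -0.48 to -0.08 for Nes, -0.052 to 0.39 for Vim, -0.058 to 2.78 for Hopx, -0.85 to 2.64 for Gfap, 0.08 to 2.13 for Aqp4, -1.52 to -0.36 for Aldh1l1, -1.01 to 3.65 for S100b and -0.39 to 0.78 for Aldoc. The lowest value of Vim, Hopx, Gfap, Aqp4, S100b and Aldoc and the highest of Fabp7 and Aldh1l1 were those without Bahd1-KO replicate 3. The median of the 10 genes ran from -0.12 to 0.57. With DESeq2 and Bahd1-KO replicate 3 left out, signs changed for Fabp7 (0.23), Vim (-0.056), Hopx (-0.062), Gfap (-0.85), S100b (-1.03) and Aldoc (-0.40). Bahd1-KO replicate 3 and Bahd1-WT replicate 1 had the highest summed levels of mature myelin markers. With both left out, signs changed for Fabp7 (0.35), Vim (-0.19), Hopx (-0.20), Gfap (-0.45) and Aldoc (-0.46). With voom and quality weights they changed for Fabp7 (0.067), Vim (-0.046), Gfap (-0.42), S100b (-0.26) and Aldoc (-0.52), and with total counts for Slc1a3 (-0.062) and Vim (-0.067). Total counts moved the median of all genes from 0.06 to -0.11 and that of the 10 genes from 0.28 to -0.02. The cause was not tested, except that settings without or with less weight on Bahd1-KO replicate 3 use fewer or less of its reads by construction.

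Deviations of same-numbered embryos from the means of their genotypes had correlations of 0.21, 0.31 and -0.11, and not every embryo correlated best with its own number. With so few embryos, these values cannot show whether same-numbered embryos shared a litter or a batch. With a replicate block, 0 genes passed over all genes, 0 of the 10 among them, and the median of the 10 genes was 0.15. When Bahd1-KO replicate 3 was also dropped from the fit with the replicate block, 16 genes passed, 0 of the 10 among them. The smallest adjusted p of the 10 genes was 0.183 (edgeR). At an unadjusted p under 0.05 there were 3 of the 10, more than in any other alternative, and 2171 of all 23334 genes. The median of the 10 genes was -0.14, and signs changed for Fabp7 (0.21), Nes (0.064), Gfap (-1.30), Aqp4 (-0.28), S100b (-1.16) and Aldoc (-0.43). The 95% intervals passed 1 log2 unit in at least 1 direction for Fabp7, Hopx, Gfap, Aqp4, Aldh1l1, S100b and Aldoc in all embryos, and for Gfap, Aqp4, Aldh1l1, S100b and Aldoc without replicate 3.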

Other observations

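The gene with the pattern nearest to Fabp7, Gm8773, had 0.631 to 0.801 reads per 100 reads of Fabp7 in all 6 embryos, with 5 reads against 792 in Bahd1-KO replicate 3 and 267 to 377 reads against 37284 to 53323 in the others. Its annotated transcript held 1244 different 25-base words, of which 0 occurred in a Fabp7 transcript on either strand.

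Des, the muscle member of the filament family of Gfap and Vim, was at 10.5 TMM CPM in Bahd1-KO replicate 3 against 0.443 to 1.32 in the others. All 7 listed markers of skeletal muscle were above every other embryo there, with a summed level of 79.3 against 2.32 to 11.7 TMM CPM and none of them at 0. Nefh, a neurofilament gene of mature axons, was at 87.5 against 6.41 to 15.7 TMM CPM, and Ina, a filament gene of young neurons, at 61.96 against 555 to 692 TMM CPM.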
